A study of Drosophila melanogaster with 28 samples.

Results

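Mitochondrial ribosomal proteins, encoded in the nucleus and imported, build the mitochondrial ribosome together with ribosomal RNAs made from mitochondrial DNA. That ribosome translates the few proteins mitochondrial DNA still encodes, which are core subunits of the respiratory chain and of ATP synthase. Its large subunit (proteins named L) forms peptide bonds, and its small subunit (proteins named S) reads the mRNA. Some of the proteins descend from bacterial ribosomal proteins and others are particular to mitochondria. Early fly embryos rely on mitochondria and RNAs that the egg received from the ovary.

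The genes described here are those whose name starts with mRpL or mRpS in the deposited gene tables of Drosophila melanogaster. The rule took 72 genes of 13892 with a unique name, 46 named for the large subunit and 26 for the small subunit. RNA was sequenced from 2 libraries each of embryos 0 to 2 h old, whole dissected ovaries, OSS cells (ovarian somatic sheet, a cultured line of ovarian somatic cells) and carcasses, which are flies from which the ovaries had been removed. Per the labels, flies were raised at 25 °C and fed yeast paste, and OSS cells were grown at 25 °C. The labels name no strain, genotype or fly age for these 8 libraries, and no separate animals, collections or cultures, so p-values measure the spread between these libraries, which may be technical. The series holds 28 samples, and the 20 knockdown libraries, which have transposon values, were not used here. Values are FPKM, which scale the fragments of a gene by transcript length and by the mapped fragments of the library, and their sums per library lay between 459357 and 629055.

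Most markers of the labelled tissues stood where the labels place them. The 5 maternal RNAs (bcd, CycB3, smg, nos, Tl) summed to 2320 and 2324 FPKM in embryo, 892 and 912 in ovary, 98.0 and 100.5 in OSS and 109 and 98.0 in carcass. Within that list nos, a germ plasm RNA, went the other way, with 4.25 and 7.36 FPKM in embryo, against 244 and 253 FPKM in ovary. The 6 muscle genes summed to 2.85 and 11.8 FPKM in embryo, 199.7 and 206 in ovary, 149 and 136 in OSS and 6213 and 5740 in carcass. The 6 germline genes summed to 463 and 451 FPKM in embryo, 1062 and 1091 in ovary, 24.4 and 21.9 in OSS and 54.4 and 64.6 in carcass. In OSS, tj and fs(1)Yb, which mark ovarian somatic cells, stood at 84.2 and 87.9 FPKM and at 49.4 and 48.6 FPKM. The other ovarian somatic markers did not all follow. Fas3 was lower in OSS (32.0 ± 3.14 FPKM) than in carcass (61.4 ± 3.803 FPKM, SD, n = 2 each). zfh1 had 15.6 FPKM in each OSS library, against 16.2 and 18.4 FPKM in ovary. ptc did follow, with 37.4 and 36.7 FPKM in OSS, 0.780 and 0.767 in ovary and 2.12 and 3.29 in carcass. The 4 gut genes were listed at 0 in embryo replicate 1, and wupA, a muscle gene, in both embryo libraries. The 5 ovarian somatic genes summed to 9.03–9.19 FPKM in embryo, 79.5–84.7 in ovary, 219–221 in OSS and 70.6–74.2 in carcass. The 5 eggshell genes summed to 10.2–16.5 FPKM in embryo, 5651–5730 in ovary, 66.8–68.9 in OSS and 195–462 in carcass, so some eggshell RNA was present in the carcass libraries. The fat body genes (2.38–4.15 FPKM in embryo, 1057–1133 in ovary, 3.48–8.34 in OSS, 5064–6477 in carcass) and the neuron and eye genes (32.6–35.0 FPKM in embryo, 58.3–59.5 in ovary, 22.9–25.0 in OSS, 803–1023 in carcass) were highest in carcass. The ovary sum of the fat body list was nearly all Yp1 and Yp2, with means of 592 and 498 FPKM. Lsp2, fit and Fbp1 had ovary means of 1.97, 1.93 and 1.31 FPKM. Each marker list moved with the groups, and the part of cell makeup in the results below was not tested.

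The 72 genes were most abundant in OSS cells, lower in ovary, lower again in carcass and lowest in the early embryo. Over the group means of the 72 genes, the median was 4.93 FPKM in embryo, 65.7 FPKM in ovary, 103 FPKM in OSS and 25.5 FPKM in carcass. Group means ranged over 0 to 382 FPKM in embryo, 20.8 to 255 FPKM in ovary, 38.8 to 345.5 FPKM in OSS and 10.1 to 203 FPKM in carcass. In bulk libraries such as these, fewer cells that use a gene and less of its RNA per cell cannot be told apart.

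As a share of all FPKM, the 72 genes made up 0.300% and 0.294% in embryo, 0.967% and 0.924% in ovary, 1.33% in each OSS library and 0.387% and 0.444% in carcass. The 2 embryo libraries were the lowest, and no group overlapped another. By rank, the median member stood at the 66.6th and 65.8th percentile of all genes in embryo, the 83.1st and 81.4th in ovary, the 91.0th and 90.3rd in OSS and the 69.4th and 73.7th in carcass. These ranks do not depend on how a library is scaled.

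The order OSS, ovary, carcass, embryo held for the group means of 60 of the 72 genes. In 52 of them each library of a group lay above each library of the next, as did 9.93% of the 11488 genes tested. In 8 genes the embryo mean lay above the carcass mean and the order was OSS, ovary, embryo, carcass (mRpL4, mRpL15, mRpL39, mRpL50, mRpS10, mRpS17, mRpS23, mRpS33). The remaining 4 had orders of their own. In mRpL28 carcass stood above ovary, in mRpS9 embryo stood above ovary, and in mRpS30 and mRpS5 embryo was the highest group.

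**Figure D1:**
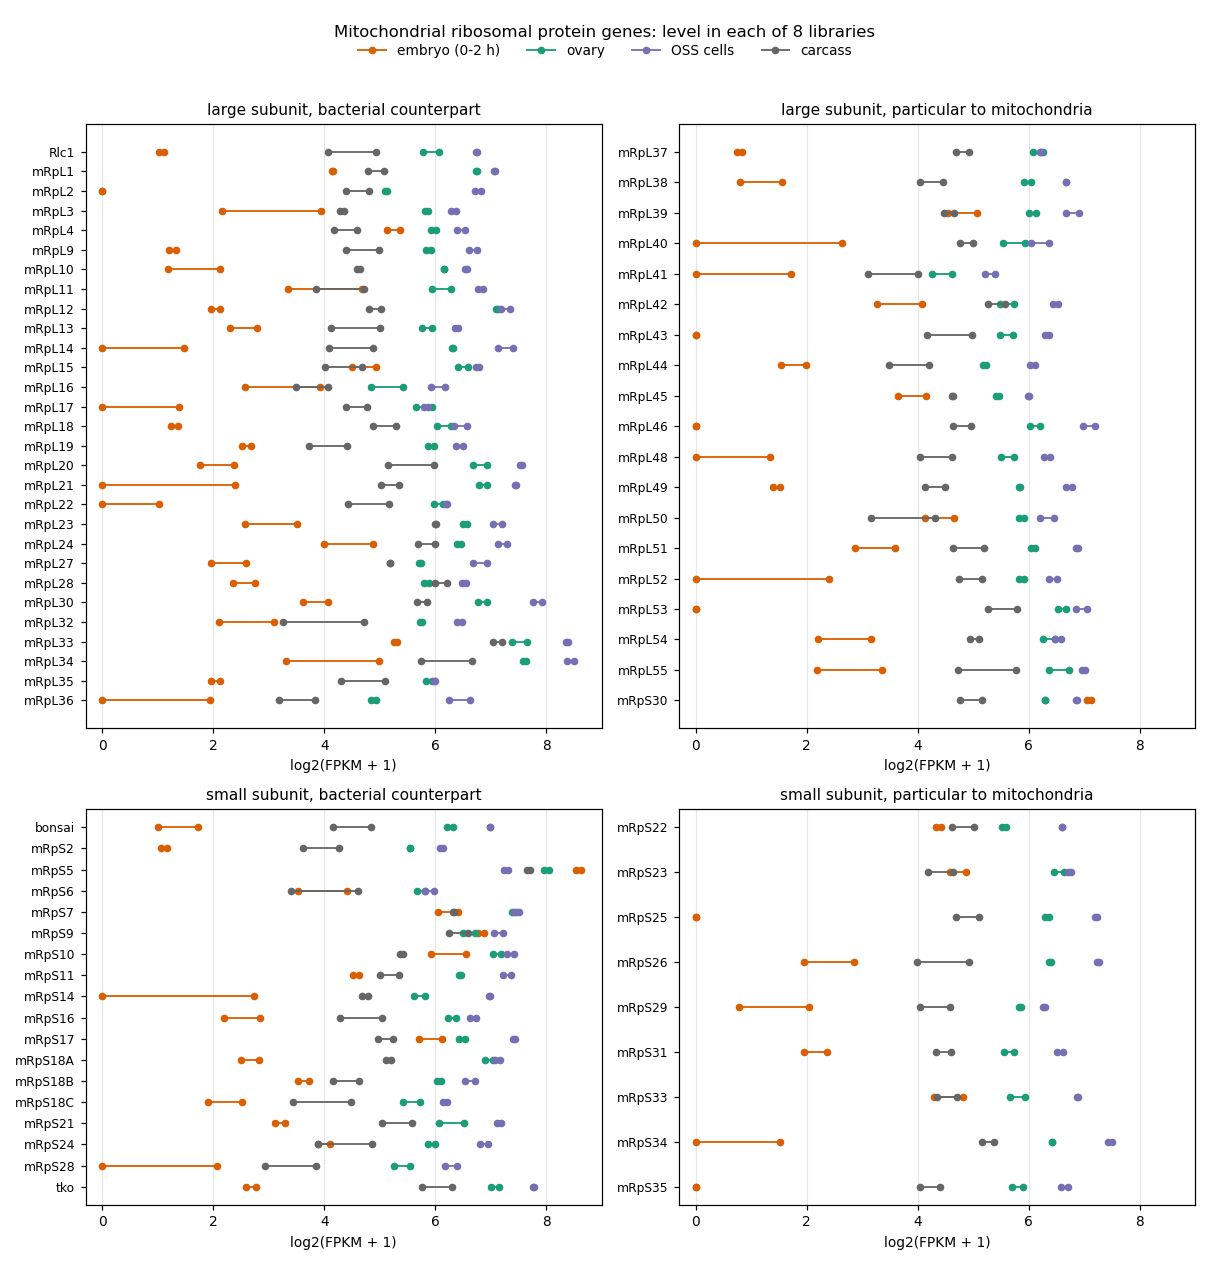
Level of each mitochondrial ribosomal protein gene on log2(FPKM + 1), with 2 joined points a group for its 2 libraries, in panels by subunit and origin; the panels also hold mRpL47 (listed as Rlc1), bonsai and tko, whose names the rule does not take. Most genes run from embryo at the left through carcass and ovary to OSS at the right, and mRpS5 and mRpS30 have embryo at the right.

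Against ovary, almost the whole set was lower in embryo. Of the 72 genes, 69 were lower, 2 were higher (mRpS30 and mRpS5) and mRpS9 was not called (limma, Benjamini-Hochberg adjusted p under 0.05 over all genes tested). Among all 11488 genes tested, 59.9% were called, 15.1% higher and 44.8% lower. The median log2 difference of the 72 genes was −3.47, beside −0.58 for all genes. The median member had 7.39% of its ovary level in embryo. Over all genes, median-ratio scaling gave 2995 higher and 3968 lower and quantile normalization 3566 higher and 3102 lower, against 1732 and 5150 as deposited, and moved the median of all genes to −0.12 and 0.18. The members' median was then −2.55 and −1.71, with 3 members higher in each case and 58 and 48 lower. mRpS22, particular to mitochondria, was lower in embryo as deposited (−1.18) and higher with quantile normalization (0.38, limma adjusted p = 0.0183). As deposited, the share of the ovary level was under 10% in 42 genes, between 10% and 50% in 24 and 50% or more in 6.

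Genes of the large subunit stalk, which brings translation factors to the ribosome, were lower in embryo. So were 69 of all 72 members, whose median was −3.47. mRpL12, the stalk protein, had 3.33 and 2.89 FPKM in embryo, against 135 and 139.6 FPKM in ovary. Its log2 difference was −5.07 ± 0.13 (SE, limma adjusted p = 4.22e-07), and the groups lay far apart. By the step method described below, mRpL12 rested on 2 fragments in each embryo library (4 summed, 95% exact Poisson interval 1.09 to 10.2). mRpL10 rested on 1 and 3 fragments. The SE may not show this counting error. mRpL10 and mRpL11, at the base of the stalk, were also lower, with log2 differences of −4.50 ± 0.28 (limma adjusted p = 8.67e-06) and −2.09 ± 0.45 (limma adjusted p = 0.00542). mRpL11 thus fell less than the median member. Of the proteins around the exit tunnel, through which the new peptide leaves, a list of 7 (mRpL17, mRpL22, mRpL23, mRpL24, mRpL32, mRpL45 and Rlc1) had a median of −3.50 and all 7 were lower. mRpL4, another tunnel protein, was not on that list and lay at −0.73. A list of 6 proteins of the central protuberance, which faces the small subunit, had all 6 lower with a median of −4.82.

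The genes named for the large subunit had a lower median in embryo than those named for the small subunit. All 46 mRpL genes were lower, with a median log2 difference of −3.63, and 23 of 26 mRpS genes were lower, with a median of −2.77. The median share of the ovary level was 6.79% for mRpL and 13.9% for mRpS genes. Among the 6 genes that kept 50% or more of their ovary level, 5 were mRpS genes and mRpL4 was the other. The difference between the subunits was not tested. By origin, proteins with a bacterial counterpart had medians of −3.46 in the large subunit (29 genes) and −2.77 in the small subunit (18 genes). Proteins particular to mitochondria had medians of −3.79 in the large subunit (19 genes, with mRpS30 placed there) and −3.99 in the small subunit (9 genes). The other mRpS genes were kept in the small subunit by name.

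mRpS30 had the largest positive difference between embryo and ovary. Its product was first assigned to the small subunit and is part of the large subunit in mammalian structures. It had 139 and 132 FPKM in embryo, 77.7 FPKM in each ovary library, 116 and 114.9 FPKM in OSS and 26.1 and 34.7 FPKM in carcass. Both embryo libraries lay above all 6 others. The log2 difference was 0.79 ± 0.13 against ovary (adjusted p = 0.00157) and 2.13 ± 0.13 against carcass (adjusted p = 5.87e-06). Against OSS it was 0.22 ± 0.13, which was not called (adjusted p = 0.183).

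mRpS5, the counterpart of a bacterial protein near the mRNA entry of the small subunit, ran against the rest of the set. It had 372 and 392 FPKM in embryo, 247 and 264 FPKM in ovary, 150.2 and 157.5 FPKM in OSS and 207 and 200.2 FPKM in carcass. Embryo was the highest group and OSS the lowest, with no overlap. It was higher in embryo than in ovary (0.58 ± 0.07, adjusted p = 0.000267), OSS (1.31 ± 0.07, adjusted p = 3.49e-06) and carcass (0.91 ± 0.07, adjusted p = 1.71e-05). As a share of the members' summed FPKM, mRpS5 made up 27.7% in embryo, 4.67% in ovary, 1.85% in OSS and 8.43% in carcass. The 3 most abundant members together held 45.6% in embryo, 11.6% in ovary, 10.9% in OSS and 17.7% in carcass.

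mRpS9, whose bacterial counterpart touches the tRNA in the peptidyl site, had 108 and 116 FPKM in embryo, 104 and 89.6 FPKM in ovary, 149 and 132 FPKM in OSS and 74.9 and 95.3 FPKM in carcass. Its range over the groups was among the 3 narrowest of the set, with mRpS7 and mRpS5. Embryo and ovary differed by 0.21 ± 0.14 (adjusted p = 0.247). In the annotation at hand 25.1% of its exon bases also belong to the opposite strand of CG10092, the mitochondrial arginyl-tRNA synthetase. No source at hand says how strand was used in counting, so the level of mRpS9 is uncertain. The same holds for mRpS24, mRpS21, mRpS14 and mRpL17, with 55.3%, 48%, 32% and 23.6% of exon bases shared with a gene on the opposite strand, and for mRpL13, with 35.2% shared on the same strand. In all, 41 of the 72 genes share some exon bases with the opposite strand and 3 with another gene on their own.

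A middle group kept much of its ovary level in embryo. mRpS10, of the small subunit head, had 92.5 and 59.9 FPKM in embryo, against 145 and 131 FPKM in ovary. mRpS17, which binds the small ribosomal RNA in bacteria, had 51.1 and 68.8 FPKM in embryo, against 91.4 and 84.7 FPKM in ovary. mRpL4, whose bacterial counterpart lines the exit tunnel, had 33.8 and 40.0 FPKM in embryo, against 63.8 and 59.9 FPKM in ovary. These were 55.1%, 68.1% and 59.7% of the ovary mean, and all 3 were lower with log2 differences of −0.88 ± 0.19, −0.56 ± 0.16 and −0.73 ± 0.16 (adjusted p = 0.00535, 0.0192 and 0.00634). With median-ratio scaling the 3 differences turned positive (0.13, 0.44 and 0.26) and none was called. mRpS7, at the mRNA exit of the small subunit, had 83.8 and 64.9 FPKM in embryo, against 174 and 165 FPKM in ovary, and was lower by −1.19 ± 0.12 (adjusted p = 0.00012).

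**Figure D2:**
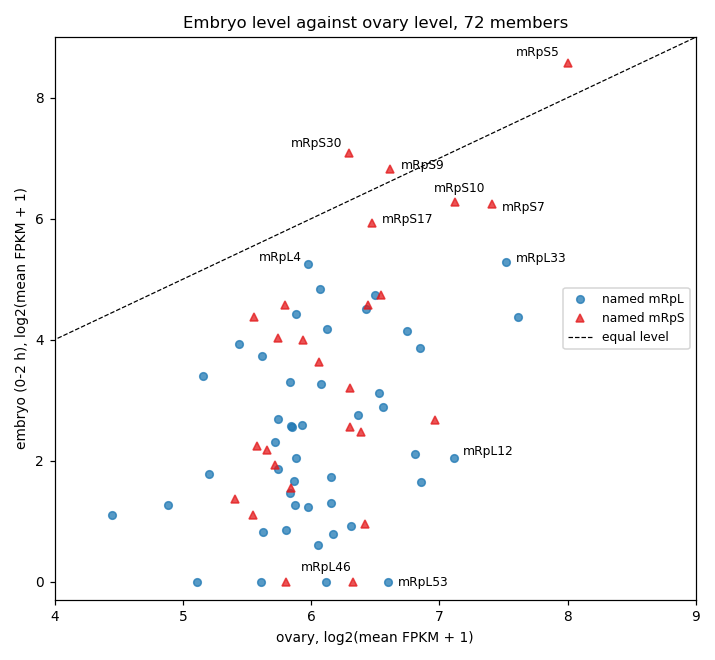
Mean level in embryo (vertical axis) against mean level in ovary (horizontal axis), both on log2(mean FPKM + 1), for the 72 genes, with circles for mRpL, triangles for mRpS and a dashed line at equal level. The members lie below the line apart from mRpS5, mRpS30 and mRpS9, and 6 members at the bottom are listed at or near 0 in embryo.

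At the other end stood members listed at 0 in embryo. Of all 14147 lines, 5479 and 3920 were at 0 in embryo replicates 1 and 2, against 12 and 10 of the 72 members. Zeros were thus rarer among the members than over all lines. In all, 17 members were listed at 0 in at least 1 embryo library and in no other library. Of these, 5 were listed at 0 in both: mRpL2, near the peptidyl transferase centre, and mRpL43, mRpL46, mRpS25 and mRpS35, particular to mitochondria. Their ovary libraries held 33.1 and 33.98 FPKM for mRpL2, 51.7 and 44.0 FPKM for mRpL43, 64.0 and 72.5 FPKM for mRpL46, 77.5 and 81.3 FPKM for mRpS25 and 58.7 and 50.8 FPKM for mRpS35. mRpL46 and mRpS35 had no fragment in either embryo library by the step method described next. At a floor of 3 fragments over the group, mRpL46 was at least 38.7-fold lower in embryo than in ovary and mRpS35 at least 40.5-fold lower. mRpL53 was listed at 9.58e-20 and 1.36e-16 FPKM in embryo, against 101 and 91.2 FPKM in ovary. All of its exon bases are shared with CG33155 on the same strand, so how its fragments were divided is uncertain.

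The other 12 were at 0 in 1 of the 2 embryo libraries. They were mRpL14, mRpL17, mRpL21, mRpL22, mRpL36, mRpL40, mRpL41, mRpL48, mRpL52, mRpS14, mRpS28 and mRpS34. The embryo library with a value held between 1.03 FPKM (mRpL22) and 5.64 FPKM (mRpS14). The 3 largest negative differences were −6.60 ± 0.19 for mRpL53, −6.33 ± 0.17 for mRpS25 and −6.11 ± 0.17 for mRpL46 (adjusted p = 6.52e-07, 4.87e-07 and 5.81e-07). For members at 0 these depend on the pseudocount of 1 and are no bounds. Members at or near 0 in both embryo libraries show no spread there, so their SE rests on the other libraries and the trend. Over the 72 members the median absolute gap between the 2 libraries was 0.505 (log2) in embryo, 0.127 in ovary, 0.092 in OSS and 0.408 in carcass. Over all genes it was 0.226, 0.130, 0.111 and 0.348. The shared SE may therefore be too small for embryo. Without the 6 members listed at or near 0 in both embryo libraries the median log2 difference was −3.40 over 66 genes, and the median share of the ovary level was 8.39%. With mRpL46 and mRpS35 at their bound the median over the 72 genes stayed at −3.47.

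Most embryo values whose fragments could be inferred rest on few fragments. Where fragments were counted whole, a gene's FPKM in different libraries are whole multiples of what 1 fragment is worth, and this held for 41 of the 72 genes in 7 libraries within 0.01 fragment. By these steps the median member had 1 and 3 fragments in the embryo libraries, 227 and 147 in ovary, 245 and 184 in OSS and 46 in carcass replicate 2. Over both embryo libraries 24 of the 41 had under 5 fragments. mRpS30 stood out with 252 and 275 fragments (527 summed, 95% exact Poisson interval 483 to 574). mRpL37, particular to mitochondria, had 1 fragment in each embryo library, which is 1.03% of its ovary level with a 95% interval of 0.125% to 3.74%. Intervals and floors cover counting error only.

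Pooling avoids the thin counts of single genes. Fragments and depth both come from the FPKM values, so the sums are no separate check of the group order. They also leave out mRpS5, mRpS9, mRpS10 and mRpL4, which stayed high in embryo. The 40 members other than mRpS30 had 200 and 257 fragments in embryo, 8527 and 5445 in ovary, 9719 and 7233 in OSS and 2061 in carcass replicate 2. Relative to embryo replicate 1, the depth by the same steps was 1.15 in embryo replicate 2, 4.51 and 3.06 in ovary, 3.41 and 2.61 in OSS and 2.44 in carcass replicate 2. Per unit of this depth the 40 members had 200 and 223 fragments in embryo, 1892 and 1782 in ovary, 2847 and 2768 in OSS and 844 in carcass replicate 2. With mRpS30 included, the 41 members had 452 and 462 in embryo, 2033 and 1923 in ovary, 3058 and 2977 in OSS and 907 in carcass replicate 2. The order of the groups was OSS, ovary, carcass, embryo in both sums. The FPKM of all 72 genes summed to 1378 and 1380 in embryo, 5616 and 5329 in ovary and 8374 and 8278 in OSS. In carcass they summed to 2101 and 2725. Embryo thus lay closer to ovary over all 72 genes than over the 40.

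**Figure D3:**
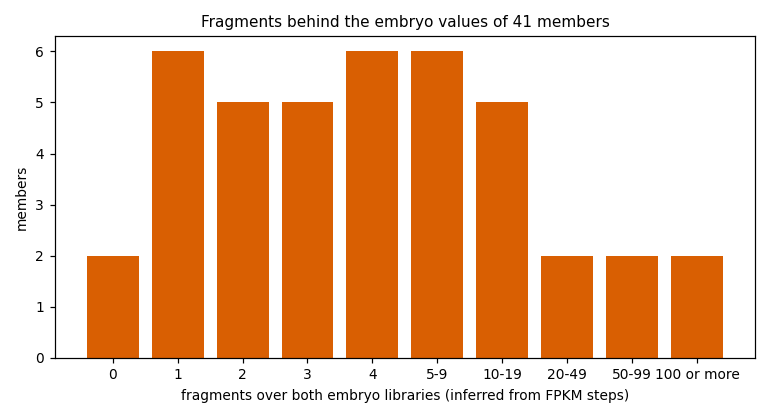
Number of members (vertical axis) by fragments summed over both embryo libraries (horizontal axis, grouped), for the 41 members whose fragments could be inferred. Of these, 2 had no fragment and 22 had between 1 and 4, and the 2 at the right end are mRpS7 and mRpS30. mRpS5, mRpS9, mRpS10 and mRpL4, which stayed high in embryo, are not among the 41.

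The embryo also lay below OSS and, for most members, below carcass. Against OSS, 69 of 72 were lower, mRpS5 was higher, and mRpS30 and mRpS9 were not called, while 68.3% of all genes were called, 17.0% higher and 51.4% lower. The median log2 difference was −4.12, beside −0.94 for all genes. With median-ratio scaling 2982 genes were higher and 4638 lower, and with quantile normalization 3559 and 3577, while the members' median was −3.17 and −2.44. The largest negative difference as deposited was that of mRpS25, which was listed at 0 in embryo, against 149 and 145 FPKM in OSS. Against carcass, 56 of 72 were lower and 6 were higher, while 77.7% of all genes were called, 23.7% higher and 54.1% lower. The median was −2.22, beside −1.17 for all genes. The 6 higher in embryo were mRpL4 (0.86 ± 0.16, adjusted p = 0.00209), mRpS5, mRpS9 (0.40 ± 0.14, adjusted p = 0.0332), mRpS10 (0.85 ± 0.19, adjusted p = 0.00475), mRpS17 (0.81 ± 0.16, adjusted p = 0.00257) and mRpS30. With quantile normalization 4357 genes were higher and 3696 lower, 17 members were higher in embryo than in carcass and 32 lower, and 10 of the members called above changed sign.

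In OSS cells nearly all members were higher than in carcass. Of 72, 69 were higher, mRpS5 was lower (−0.40 ± 0.07, adjusted p = 0.00158) and mRpL40 and mRpL52 were not called. Among all genes 76.0% were called, 46.1% higher and 29.9% lower. The median log2 difference was 2.01, beside 0.51 for all genes, and the median ratio of means was 4.11. The 3 largest were mRpL36, a small protein with a bacterial counterpart (75.1 and 98.2 FPKM in OSS, against 8.05 and 13.3 FPKM in carcass), mRpS28 (82.6 and 71.4 FPKM in OSS, against 6.63 and 13.5 FPKM in carcass) and mRpS26 (153 and 148 FPKM in OSS, against 14.9 and 29.3 FPKM in carcass). Their log2 differences were 2.93 ± 0.58, 2.89 ± 0.64 and 2.79 ± 0.37 (adjusted p = 0.00286, 0.00471 and 0.000365). mRpL28 moved least among the higher ones, with 92.9 and 88.8 FPKM in OSS, against 63.1 and 73.2 FPKM in carcass (0.41 ± 0.16, adjusted p = 0.0459). With median-ratio scaling it turned lower in OSS (−0.71), as did mRpS9 (−0.41).

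Ovary stood above carcass for most of the set. Of 72, 60 were higher and none was lower (no member at an unadjusted p under 0.05 either), while 74.6% of all genes were called, 43.5% higher and 31.1% lower. The median log2 difference was 1.34, beside 0.31 for all genes, and the median ratio of means was 2.55, within 0.828 to 4.69. The 3 largest were mRpL12 (135 and 139.6 FPKM in ovary, against 27.1 and 31.4 FPKM in carcass), mRpL15 (94.7 and 84.1 FPKM in ovary, against 15.1 and 24.8 FPKM in carcass) and mRpL50 (55.9 and 59.7 FPKM in ovary, against 7.90 and 18.9 FPKM in carcass). Their log2 differences were 2.20 ± 0.13, 2.15 ± 0.24 and 2.15 ± 0.37 (adjusted p = 9.3e-06, 0.000166 and 0.00138). mRpL28, mRpL42 and mRpS9 moved least, at −0.27 ± 0.16, 0.19 ± 0.26 and 0.19 ± 0.14, none of them called.

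The calls against carcass depended on the scaling. Median-ratio scaling, which sets libraries by the typical ratio of a gene to its mean, moved the median of all genes to −0.50 for ovary minus carcass (2563 genes higher, 5208 lower, against 4993 and 3574 as deposited) and to −0.42 for OSS minus carcass (2849 higher, 5149 lower, against 5295 and 3438 as deposited). With it 15 members were higher in ovary and 7 lower, the median was 0.23, and 20 of the 72 changed sign, among them mRpL33, mRpS5 and mRpS22, which were then lower in ovary (−0.73, −0.80 and −0.36). For OSS minus carcass 40 members were then higher and 3 lower. Relative to the median of all genes, 69 of the 72 lay above it for ovary minus carcass with the values as deposited.

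Carcass replicate 1 lay below carcass replicate 2 in 66 of 72 members, as it did in 85.4% of 11196 genes with both values. The median gap was −0.41 (log2) over the members and −0.32 over the genes. Its FPKM did not share the whole-fragment steps of the other 7 libraries. Without carcass replicate 1, the members' median log2 difference was 1.07 for ovary minus carcass and 1.81 for OSS minus carcass, against 1.34 and 2.01 with both carcass libraries.

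Ovary and OSS differed less. Of 72, 26 were lower in ovary and mRpS5 was higher (0.73 ± 0.07, adjusted p = 0.000261), while 41.7% of all genes were called, 18.8% higher and 23.0% lower. The median log2 difference was −0.69, beside −0.16 for all genes. mRpL2 had the largest negative difference, with 33.1 and 33.98 FPKM in ovary, against 113 and 104 FPKM in OSS (−1.66 ± 0.18, adjusted p = 0.00041). mRpL36 and mRpS14 came next at −1.56 ± 0.58 and −1.26 ± 0.75 and were not called (adjusted p = 0.0715 and 0.229). mRpL17 and mRpL37 had the smallest negative differences, at −0.03 ± 0.42 and −0.04 ± 0.15 (not called, adjusted p = 0.972 and 0.841). The fit shares its spread over all 8 libraries, and the part of the embryo libraries in these calls was not tested. With only ovary and OSS in the fit 57 members were lower in ovary. The count over all genes in that fit is not given here, so the rise is no result about the members. The count of called members also moved when single libraries were left out.

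**Figure D4:**
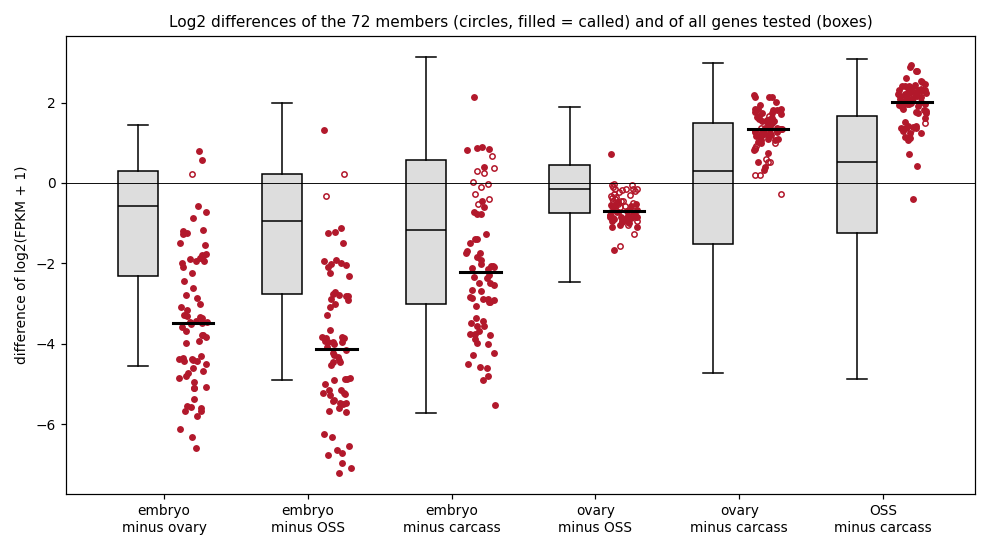
Difference of log2(FPKM + 1) in 6 comparisons (vertical axis), with grey boxes for all 11488 genes tested (quartiles, median, whiskers at the 5th and 95th percentile) and circles for the 72 members (filled where called, black bar at their median). The members' median lies at −3.47, −4.12 and −2.22 in the 3 embryo comparisons and at −0.69, 1.34 and 2.01 in the others.

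Levels within the set kept much of their order among ovary, OSS and carcass, and less in embryo. Across the 72 genes Spearman's rho of the group means was 0.784 between ovary and OSS, 0.682 between ovary and carcass and 0.667 between OSS and carcass. For embryo it was 0.388 with ovary, 0.334 with OSS and 0.280 with carcass. Between the 2 libraries of a group it was 0.851 in embryo, 0.958 in ovary, 0.962 in OSS and 0.888 in carcass. These are descriptions across genes that share gene lengths and annotation, and genes are not independent replicates. The members' share of the ovary level in embryo had a rho of 0.02 with exon length and of 0.16 with the ovary level.

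By mean over the groups the most abundant members were mRpS5, mRpL33, mRpL34, mRpS7 and mRpS9. mRpL33, which lies at the tRNA exit site in bacteria, had 37.1 and 38.7 FPKM in embryo, 166 and 199.2 FPKM in ovary, 335 and 327 FPKM in OSS and 131 and 146 FPKM in carcass. mRpL34 had 30.7 and 8.90 FPKM in embryo, 198 and 191 FPKM in ovary, 330.2 and 361 FPKM in OSS and 52.3 and 101 FPKM in carcass. Both genes followed the common order. The least abundant were mRpL41, mRpL44, mRpL16, mRpL36 and mRpS2. mRpL41 had 2.30 and 0 FPKM in embryo, 23.5 and 18.03 FPKM in ovary, 36.3 and 41.3 FPKM in OSS and 7.65 and 15.0 FPKM in carcass, and it was the lowest member in ovary and in OSS.

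The mitochondrial ribosomal proteins outside the name rule followed the same order. tko, the counterpart of bacterial S12 and the gene of a classic bang-sensitive fly mutant, had 5.80 and 5.04 FPKM in embryo, 142 and 127 FPKM in ovary, 217 and 216 FPKM in OSS and 52.9 and 77.6 FPKM in carcass. bonsai, the counterpart of S15, had 2.30 and 0.997 FPKM in embryo, 78.7 and 72.6 FPKM in ovary, 126 FPKM in each OSS library and 16.9 and 27.5 FPKM in carcass. Rlc1, named mRpL47 by RefSeq, had 1.16 and 1.02 FPKM in embryo, 65.6 and 54.0 FPKM in ovary, 105 and 106 FPKM in OSS and 15.7 and 29.5 FPKM in carcass. All 3 were lower in embryo than in ovary, with log2 differences of −4.40, −4.90 and −4.86 (adjusted p = 1.83e-06, 7.65e-06 and 6.08e-06). DAP3, a GTP-binding protein of the small subunit in mammals, is the member mRpS29, with 0.724 and 3.14 FPKM in embryo, against 56.0 and 56.9 FPKM in ovary.

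The rest of the machinery that mitochondrial DNA needs was compared by lists of nuclear genes. In ovary minus carcass the translation factors, a list that also holds Oxa1 (CG6404), had 9 of 10 genes higher and none lower. The aminoacyl-tRNA synthetases, which charge tRNAs, were listed with Slimp (CG31133) added and had 15 of 16 higher and none lower. The DNA maintenance and transcription genes had all 12 higher. The medians of these lists were 1.35, 1.5 and 1.59 in that order, near the 1.34 of the ribosomal proteins. The respiratory chain and ATP synthase genes went the other way, with 61 of 75 lower in ovary, none higher and a median of −1.51. Cytosolic ribosomal proteins had 74 of 85 higher with a median of 0.42, which turned to −0.70 with median-ratio scaling. Import genes had 9 of 14 higher, none lower and a median of 0.88, which turned to −0.13 with that scaling. With median-ratio scaling the counts were 3 higher and 1 lower for the translation factors, 7 and 1 for the synthetases, 6 and 1 for DNA maintenance and transcription, 3 and 4 for import and 2 and 77 for the cytosolic ribosomal proteins. The medians of the translation factors, the synthetases, DNA maintenance and transcription, the respiratory chain and the mitochondrial ribosomal proteins kept their sign under both other scalings.

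In embryo minus ovary all 7 lists had a negative median, as deposited. The ribosomal proteins were lowest at −3.47, followed by the synthetases at −3.11 (12 of 16 lower, 1 higher), the respiratory chain at −2.64 (62 of 75 lower, none higher), DNA maintenance and transcription at −2.15 (10 of 12 lower, none higher), import at −1.95 (10 of 14 lower, 2 higher) and translation factors at −1.31 (9 of 10 lower, none higher). The cytosolic ribosomal proteins had a median of −0.95 (69 of 85 lower, 6 higher), which turned to 0.07 with median-ratio scaling (32 higher, 35 lower), and the translation factors turned to 0.34 with quantile normalization (4 higher, 4 lower). CG31739, the mitochondrial aspartyl-tRNA synthetase, was higher in embryo (209 ± 5.56 FPKM) than in ovary (75.02 ± 3.24 FPKM; SD, n = 2 each; log2 difference 1.46, limma adjusted p = 2.87e-05). CG5705, a mitochondrial release factor, had 0.369 ± 0.521 FPKM in embryo and 30.4 ± 0.961 FPKM in ovary (SD, n = 2 each). mtSSB, which binds single-stranded mitochondrial DNA, had 12.1 ± 1.204 FPKM in embryo and 292 ± 15.9 FPKM in ovary (SD, n = 2 each). The respiratory chain list was taken by symbol, and 75 of its 82 genes passed the filter. Of the 82, 6 and 8 were at 0 in the ovary libraries, while none of the 72 members was. The part of list makeup in the ranking of the medians was not tested.

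In ovary minus OSS the respiratory chain genes and the ribosomal proteins shared a median of −0.69, with 40 of 75 respiratory chain genes lower and none higher. The translation factors had 1 of 10 lower, the synthetases 1 of 16 and the DNA maintenance and transcription genes 2 of 12, with none higher. Their medians were −0.15, −0.22 and −0.38. Cytosolic ribosomal proteins had 54 of 85 lower and 2 higher (median −0.40), and import genes 4 of 14 lower and 1 higher (median −0.19). Over all genes tested 23.0% were lower and 18.8% higher, with a median of −0.16. Whether the lists differ from each other was not tested, and the comparisons share groups, so they are no independent support for each other.

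**Figure D5:**
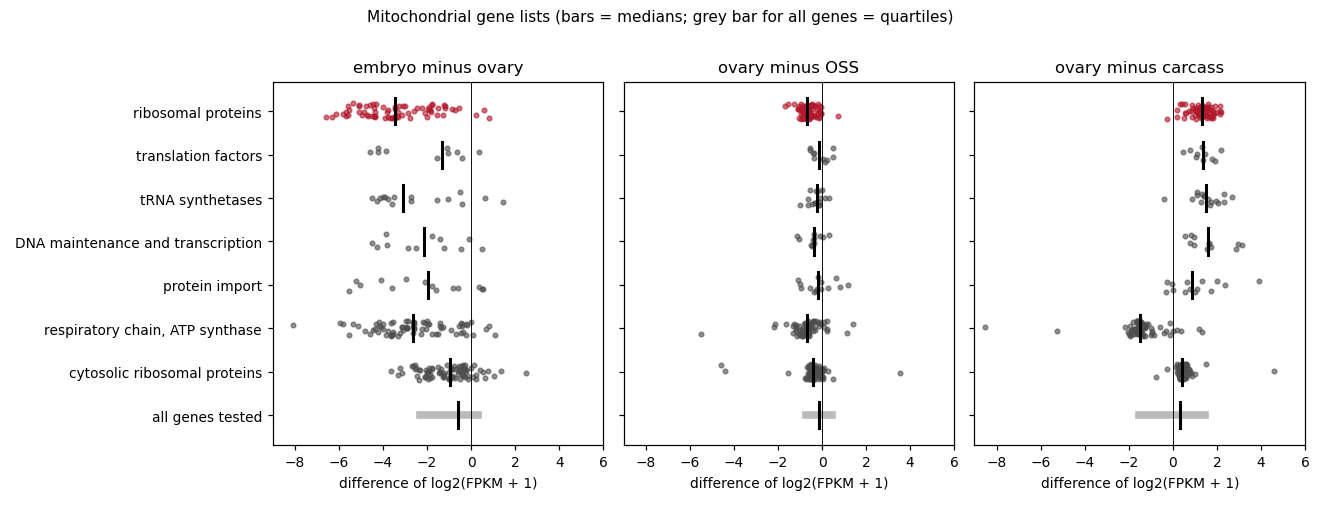
Difference of log2(FPKM + 1) (horizontal axis) of the genes of 7 lists in 3 comparisons, with 1 point a gene, a black bar at each median and, for all genes tested, a grey bar from the lower to the upper quartile. The mitochondrial ribosomal proteins lie with the translation factors and tRNA synthetases in ovary minus carcass, at 1.34, 1.35 and 1.5, where the respiratory chain lies at −1.51.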

How the data were processed

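Per the labels' protocols, RNA was extracted with TRIzol, depleted of ribosomal RNA with a RiboZero Gold kit made for human, mouse and rat, and made into libraries with ScriptSeq V2. The authors deposited FPKM per gene name. Cufflinks, TopHat, Bowtie and CASAVA 1.3 are the tools in the submitters' processing notes, with dm3 as the build. The gene annotation, filters and use of strand were not found in the labels or headers. Read totals are unknown. Carcass replicate 1 holds no number in 1070 of 14147 lines and carcass replicate 2 in 5 lines, treated as missing, and all 72 genes had a value in all 8 libraries. The values of carcass replicate 1, FPKM by the authors' column name, were recorded under the unit other, and 1.74% of its low genes sat at small whole-number ratios to embryo replicate 1, against 26.2% to 52.8% in the other libraries.

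Genes were joined by name, leaving out 93 names found on 255 lines. Genes at 1 FPKM or above in 2 or more libraries (11488, all 72 members among them) were fitted on log2(FPKM + 1), which understates changes of low genes, with limma 3.58.1 in R 4.3.3 (trend, 8 libraries in 1 fit), and p-values were adjusted by Benjamini-Hochberg over all genes tested. The fit was tested on simulated data. The labels do not say whether the replicate number marks a shared animal, batch or day, so the main fit used no block. Genes were named by a rule on extreme differences, levels and zeros. The members and lists were chosen with earlier results of these data known. Gene names and overlaps came from a RefSeq table and an annotation of release 6, whose exon positions gave the overlaps, and the annotation is of another build than the files. Of the listed genes waw, DNApol-gamma35, ATPsynB, COX1, COX2, COX3, COX7CL, UQCR-11, UQCR-6.4L and nSyb were not analysed here. Alternatives were other scalings, pseudocount, filters, groups in the fit, a replicate block and leaving out each library.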

Additional observations from a re-analysis of the deposited data

How the results depend on the processing

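The count of members called moved by over 1.5 times from the values as fitted (60 for ovary minus carcass, 70 for OSS minus carcass, 27 for ovary minus OSS, 71 for embryo minus ovary, 70 for embryo minus OSS, 62 for embryo minus carcass) in these cases. Median-ratio scaling gave 22 for ovary minus carcass and 43 for OSS minus carcass. Fitting only the 2 groups gave 58 for ovary minus OSS, and leaving out each library gave 9 to 40 there (9 without OSS replicate 1, 12 without OSS replicate 2, 16 without ovary replicate 1, 11 without ovary replicate 2). A filter of FPKM 1 or more in all 8 libraries gave 41 for embryo minus carcass, with 51 members left to test. Members that were called on at least 1 side changed sign as follows. With median-ratio scaling these were, for ovary minus carcass, mRpL42 (to −0.92), mRpS9 (to −0.93), mRpL2 (to −0.58), mRpL33, mRpS5 and mRpS22, all called lower then, and mRpL18, mRpL30, mRpL43, mRpL45, mRpL53, mRpS7 and mRpS21, not called then. For OSS minus carcass they were mRpL28 (to −0.71) and mRpS9 (to −0.41), called, and mRpL23 and mRpL42, not called. For embryo minus ovary they were mRpL4, mRpS10 and mRpS17, not called, and for embryo minus OSS mRpS9 (to 0.70, called). With quantile normalization they were mRpL42 (to −0.65, called) and mRpL2 (to −0.29, not called) for ovary minus carcass and mRpL28 (to −0.012, not called) for OSS minus carcass. For embryo minus ovary they were mRpS22 (to 0.38, adjusted p = 0.0183) and mRpL4, mRpL16, mRpL45 and mRpS33, not called, and for embryo minus carcass 14 members, of which mRpL45, mRpS18B and mRpS22 were called both ways. The cause of these changes was not tested. The replicate block gave 60, 69, 27, 71, 70 and 62 members called in the order above. Same-numbered libraries had deviations that correlated at −0.07 to 0.02 between groups. With 2 libraries a group this cannot show whether the numbers pair them. With 1 library left in a group, that library is assumed to vary like the others. Among the named genes, a call was lost with its direction kept in 12 cases and gained in 17. Over all genes, the filter of FPKM 1 or more in all 8 libraries left 5556 genes to test and called 4815 for ovary minus carcass, 4733 for OSS minus carcass, 3059 for ovary minus OSS, 4866 for embryo minus OSS and 4853 for embryo minus carcass, against 8567, 8733, 4796, 7852 and 8929. For ovary minus OSS, 3044, 3106 and 3071 genes were called without OSS replicate 1, OSS replicate 2 and ovary replicate 2. Depth limits the embryo values of single genes, since 24 of 41 members rest on under 5 fragments there.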
